A study of Mus musculus with 6 samples.

Results

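The Serpina3 genes of mouse form a cluster of related protease inhibitors, and 8 of them were followed here in microglia, the resident macrophages of the brain. They are Serpina3c, Serpina3f, Serpina3g, Serpina3h, Serpina3i, Serpina3k, Serpina3m and Serpina3n. A symbol in the deposited table identified 7 of the 8, and Serpina3h, whose row carries no symbol, was found by its gene ID (ENSMUSG00000041449). The table lists 55414 genes in all. RNA was sequenced from adult microglia of C57BL/6 mice aged 10 months, with 3 libraries from wild type (WT) mice and 3 labelled Selk-/-, a loss of the selenoprotein gene Selenok. The sources used here do not give how the allele was made, the sex of the mice or how the microglia were isolated. Replicate 3 of both groups has a title with 2 numbers, which may or may not mark a pool. Nothing says that each library is a separate animal, and a p-value here therefore covers the variation among libraries alone, some of which may be technical. The genes were picked because they differed between these 2 groups of libraries, in earlier results from the same counts. Their values in that contrast are therefore a description, with no p.

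Serpins inhibit proteases by offering an exposed loop, the reactive centre loop, as bait. The protease cuts the loop and is trapped on the serpin. The human SERPINA3 protein, alpha-1-antichymotrypsin, is a plasma protein of the acute phase that inhibits cathepsin G and is found in amyloid plaques. In mouse its counterpart is a family of neighbouring genes, and the loop differs from gene to gene. Inflammatory cytokines of the interleukin-6 type, which signal through STAT3, and glucocorticoids are known inducers of family members, and in mouse brain Serpina3n is known as a marker of reactive astrocytes and of oligodendrocytes in disease.

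Totals were 21112082 to 28123871 counts per library, so 3 counts, the upper limit that a count of 0 allows, correspond to 0.107 to 0.142 CPM (counts scaled to library size). Such limits cover counting error only. Selenok itself did not check the labels, with a mean of 119 ± 6.57 CPM in WT against 110 ± 2.19 CPM in those labelled Selk-/- (SD, n = 3 per group; log2 fold change -0.12, edgeR adjusted p = 0.381). Libraries stood apart in other ways. Small nucleolar RNA genes held 318 to 327 CPM in WT and in replicate 1 of those labelled Selk-/-, against 46.0 and 54.9 CPM in their replicates 2 and 3. Neutrophil markers, all 13 of which were detected, summed to 764 to 1524 CPM in WT, and to 676, 6333 and 1391 CPM in replicates 1 to 3 labelled Selk-/-. Microglia markers (15 of 15 tested) summed to 33820 to 36240 CPM in WT and to 28660 to 31090 CPM in those labelled Selk-/-. In such bulk RNA, fewer cells of a type and less RNA per cell cannot be told apart.

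The cluster lies on chromosome 12, where its protein-coding genes span positions 104078983 to 104380588 in the deposited table. The table names no build. Its positions in the cluster differ from those of GRCm38 by the same number of bases for each gene compared, so they are not GRCm38 positions, and sequences below carry GRCm38 positions of their own. Of 10 protein-coding Serpina3 genes in the table, 7 belong to the set followed here, and Serpina3h is annotated as a transcribed unprocessed pseudogene. Serpina3f (104180803 to 104187388), Serpina3g (104202504 to 104208198), Serpina3h (104214164 to 104219928) and Serpina3i (104229381 to 104235631) are next to each other on the plus strand. Serpina3n (104372988 to 104380588) lies at the far end. Serpina3k lies wholly within the annotated span of Serpina3m, over 7659 bases on the same strand, and an unnamed Serpina3g pseudogene (ENSMUSG00000118588) lies within Serpina3g over 3436 bases.

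The genes are close copies of each other, which bears on every count given here. In GENCODE M21, identity between coding sequences ran from 76.2% to 92.5% of aligned bases over the 45 pairs of 10 genes. Serpina3f and Serpina3i were 92.2% identical, Serpina3k and Serpina3m 92.5%, and Serpina3n was 86.0% identical to both Serpina3f and Serpina3c. The annotated coding sequence of Serpina3g is short, at 747 bases against 1257 in Serpina3n. Exact sharing of read-sized pieces was counted, which leaves out reads that match a copy with mismatches. Of the 100-base stretches of its transcripts, Serpina3f shared 1.99% with other Serpina3 genes, Serpina3g 2.57%, Serpina3h 3.60%, Serpina3i 2.25% and Serpina3n 0.05%. At 50 bases the shares were 8.91%, 15.0%, 21.9%, 12.5% and 6.75%. With transcripts of any further gene, in the same order, 4.11%, 4.88%, 3.47%, 4.5% and 2.68% of the 50-base stretches were shared. Neither the read length nor the handling of multi-mapping reads is stated, so counts of Serpina3f, Serpina3g, Serpina3h and Serpina3i in particular may include each other's reads.

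**Figure D1:**
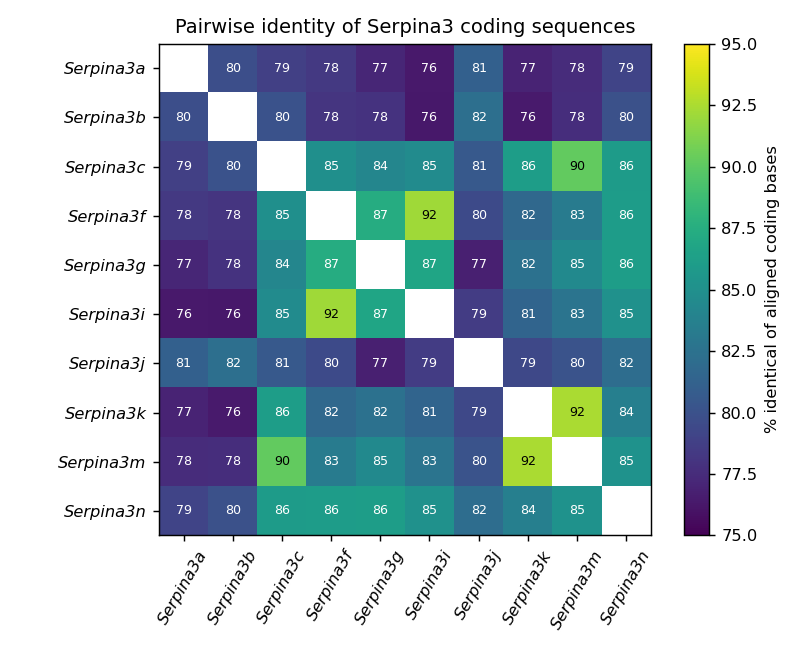
Percent of aligned coding bases that are identical, for each pair of the 10 Serpina3 genes with a complete coding sequence in GENCODE M21 (colour scale and numbers in %). Serpina3f with Serpina3i, and Serpina3k with Serpina3m, are the most alike, while Serpina3a and Serpina3b are at most 82.3% identical to any other gene.

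The stretch in which the coding sequences differ most, within the parts aligned in all 10 genes, is shown because it tells the genes apart. Over 641 gap-free columns of the alignment of 10 coding sequences, pairs were 77.2% identical on average. Of the 508 windows of 45 columns without a gap in any gene, the least conserved window had 56.4%. The lowest that did not overlap it had 62.0%. Coding bases with no counterpart in the shorter annotated sequence of Serpina3g were not scanned. The window lies in the last annotated exon of each gene. It begins at 80.5% to 88.5% of the coding sequence in 9 genes and at 67.1% in the shorter annotated sequence of Serpina3g. In serpins the reactive centre loop is encoded towards the 3′ end, and whether the window covers it was not tested. It is shown for the 4 coding genes with the highest counts and for Serpina3c. Capitals mark bases that are not the same in all 10 genes (GENCODE M21, GRCm38, read 5′ to 3′ along the gene).
Serpina3f, chr12:104220253-104220297, plus strand: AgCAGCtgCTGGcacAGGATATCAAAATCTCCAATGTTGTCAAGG
Serpina3g, chr12:104241080-104241124, plus strand: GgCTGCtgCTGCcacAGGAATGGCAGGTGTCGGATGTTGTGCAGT
Serpina3i, chr12:104268488-104268532, plus strand: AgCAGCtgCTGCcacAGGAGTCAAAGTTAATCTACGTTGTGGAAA
Serpina3n, chr12:104413456-104413500, plus strand: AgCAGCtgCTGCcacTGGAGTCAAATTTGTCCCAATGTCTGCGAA
Serpina3c, chr12:104147335-104147379, minus strand: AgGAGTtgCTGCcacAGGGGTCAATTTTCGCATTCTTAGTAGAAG
Only 6 of the 45 columns were the same in all 10 genes.

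The promoters of the 4 coding genes with the highest counts are shown next, because the genes moved together between libraries. RefSeq promoters (GRCm38.p6, 250 bases before to 50 after the annotated start) matched 5 of the 8 genes. Capitals mark matches on either strand to any of 6 motifs. These are the STAT motif TTCNNNGAA, the C/EBP motif TTGCNNAA, the NF-kB motif (GGGA, any 4 bases, CC), the interferon element (GAAA, any 2 bases, GAAA), the glucocorticoid half-site AGAACA and the TATA box TATAAA. Serpina3f has 2 annotated starts, and the first is shown.
Serpina3f promoter, chr12:104214294-104214593, plus strand: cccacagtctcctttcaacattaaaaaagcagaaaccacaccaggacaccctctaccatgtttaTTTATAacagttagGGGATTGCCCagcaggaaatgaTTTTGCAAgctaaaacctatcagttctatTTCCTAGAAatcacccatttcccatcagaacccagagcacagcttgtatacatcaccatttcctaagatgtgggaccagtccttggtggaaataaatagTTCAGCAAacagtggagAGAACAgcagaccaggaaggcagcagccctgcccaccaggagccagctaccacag
Serpina3g promoter, chr12:104235897-104236196, plus strand: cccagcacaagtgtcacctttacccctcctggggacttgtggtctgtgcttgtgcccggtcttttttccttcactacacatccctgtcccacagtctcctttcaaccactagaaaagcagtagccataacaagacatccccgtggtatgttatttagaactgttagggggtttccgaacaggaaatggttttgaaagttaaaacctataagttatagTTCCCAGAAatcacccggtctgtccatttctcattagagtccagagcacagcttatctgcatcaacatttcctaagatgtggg
Serpina3i promoter, chr12:104262872-104263171, plus strand: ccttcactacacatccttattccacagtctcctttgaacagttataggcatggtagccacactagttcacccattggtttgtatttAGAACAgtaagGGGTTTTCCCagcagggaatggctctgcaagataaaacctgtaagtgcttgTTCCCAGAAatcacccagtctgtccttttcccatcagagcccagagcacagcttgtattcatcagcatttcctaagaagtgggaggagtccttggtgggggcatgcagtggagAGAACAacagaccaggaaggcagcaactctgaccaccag
Serpina3n promoter, chr12:104406458-104406757, plus strand: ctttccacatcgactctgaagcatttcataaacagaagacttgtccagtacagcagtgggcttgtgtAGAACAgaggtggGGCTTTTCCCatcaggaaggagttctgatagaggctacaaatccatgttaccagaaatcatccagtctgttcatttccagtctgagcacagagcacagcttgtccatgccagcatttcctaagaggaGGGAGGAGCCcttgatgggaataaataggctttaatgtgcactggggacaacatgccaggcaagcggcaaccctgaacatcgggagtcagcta
The STAT motif was present in the promoters of Serpina3f, Serpina3g and Serpina3i and not in those of Serpina3n and Serpina3c. Of all 32851 promoters in the table, 8.30% hold it. In each of the first 3 genes it is followed by the same 7 bases, and the matching stretch of the other 2 genes can be read beside it (capitals mark the STAT motif).
Serpina3f, chr12:104214414-104214441, plus strand: cagttctatTTCCTAGAAatcacccatt
Serpina3g, chr12:104236105-104236132, plus strand: aagttatagTTCCCAGAAatcacccggt
Serpina3i, chr12:104263011-104263038, plus strand: aagtgcttgTTCCCAGAAatcacccagt
Serpina3n, chr12:104406576-104406603, plus strand: aaatccatgttaccagaaatcatccagt
Serpina3c, chr12:104153974-104154001, minus strand: aaatccatattaccagaaatcatccagt
The match ends 113 bases before the first start of Serpina3f, 25 before that of Serpina3g and 94 before that of Serpina3i. The glucocorticoid half-site, found in 19.0% of all promoters, was in those of Serpina3f, Serpina3i, Serpina3n and Serpina3c and not in that of Serpina3g. However, the Serpina3g window ends sooner after the STAT motif than those of Serpina3f and Serpina3i. Past the matching point, Serpina3f holds its half-site and a C/EBP match, and Serpina3i holds a half-site. The matching stretch of Serpina3g was not scanned. NF-kB motif matches, in 20.7% of all promoters, were found for Serpina3f (at its first start alone), Serpina3i and Serpina3n. C/EBP matches, in 10.8%, were found for Serpina3f alone among the 5. The interferon element, in 3.44% of all promoters, matched in none of the 5. TATAAA or its reverse complement, in 13.6% of all promoters, matched in Serpina3f (at its first start alone), overlapping no other motif, and in Serpina3c. A match is a string of letters, and these windows do not show what binds there.

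Counts in the libraries labelled Selk-/- were above those in WT for the 5 genes of the family with more than a few counts. Serpina3f had 22, 23 and 25 counts in WT replicates 1 to 3, and 98, 712 and 250 counts in replicates 1 to 3 labelled Selk-/-. Serpina3g, known in mouse immune cells as an inhibitor of cathepsins, had 25, 63 and 51 counts in WT and 163, 580 and 228 counts in the libraries labelled Selk-/-. Serpina3n, a secreted inhibitor of granzyme B and elastase-like proteases, had 26, 81 and 37 counts in WT and 109, 442 and 240 in the other group. In each of the 3 genes the groups did not overlap, and the same order held among the libraries labelled Selk-/-, with replicate 2 highest and replicate 1 lowest.

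Serpina3i and Serpina3h had no counts in WT. Serpina3i had 14, 39 and 26 counts in replicates 1 to 3 labelled Selk-/-, and Serpina3h had 4, 23 and 15. Summed over the 3 WT libraries, a count of 0 allows up to 0.0364 CPM. Pooled over the 3 libraries labelled Selk-/-, Serpina3i stood at 29.0 times and Serpina3h at 15.4 times this floor. These ratios cover counting error in WT only and leave out the spread among libraries. In replicate 1 labelled Selk-/-, Serpina3h was at 0.147 CPM, against limits of 0.107 to 0.112 CPM for single WT libraries. Of its 50-base stretches, Serpina3i shared 6.76% with Serpina3g, 4.05% with Serpina3f and none with Serpina3n, and Serpina3h shared 14.1%, 6.22% and none. Whether some of these counts are reads of Serpina3g or Serpina3f was not tested.

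The other members, Serpina3k, Serpina3c and Serpina3m, were at or near 0. Serpina3k, also called contrapsin, had 0, 2 and 3 counts in WT and 0 in each library labelled Selk-/-. Serpina3c had 1 count, in WT replicate 3, and 5 counts, in replicate 2 labelled Selk-/-. Serpina3m had 0 in all 6 libraries. Among the neighbours, Serpina3a and Serpina3j were also at 0 throughout, and Serpina3b had 2 counts, in replicate 2 labelled Selk-/-. The promoter of Serpina3c shares 91.7% of its 300 bases with that of Serpina3n, the highest share among the promoters compared, while that of Serpina3f shares 66.7%. The pseudogene inside Serpina3g had 12 counts in WT and 17 in the libraries labelled Selk-/-, so it did not follow Serpina3g, which had 139 and 971.

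**Figure D2:**
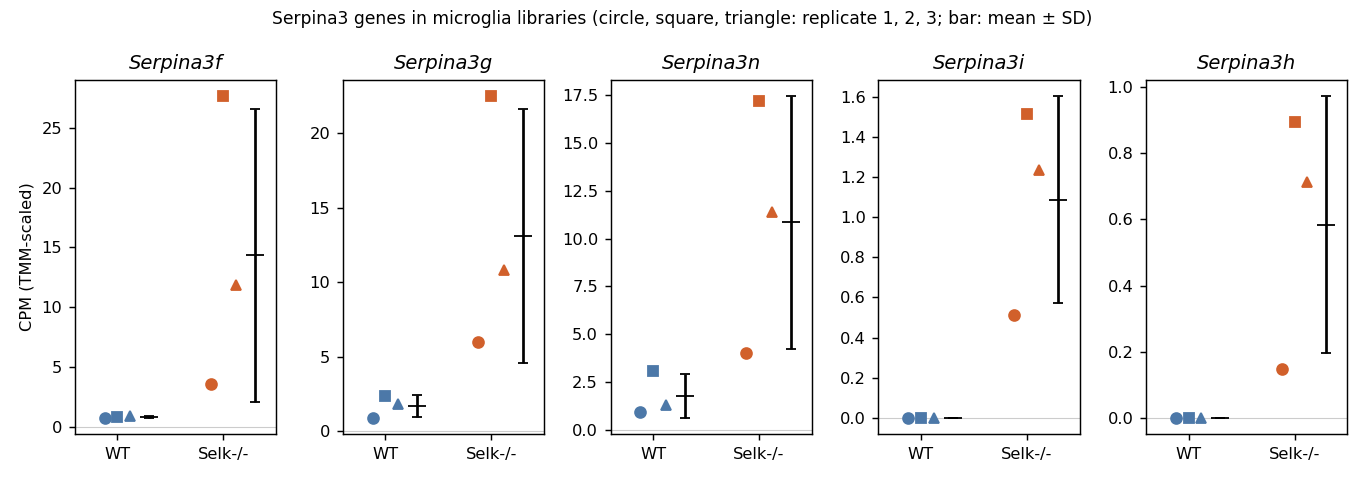
TMM-scaled CPM of the 5 genes with counts in every library labelled Selk-/- (y axis, linear, a scale of its own for each gene) in 3 WT and 3 Selk-/- libraries; symbols give the replicate and bars the mean ± SD. In each panel all 3 libraries labelled Selk-/- lie above WT, and replicate 2 is the highest and replicate 1 the lowest of them.

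On the scale of TMM-scaled CPM, Serpina3f was at 0.847 ± 0.0588 in WT and 14.4 ± 12.2 in the libraries labelled Selk-/- (SD, n = 3 per group), a ratio of means of 17.0. Its log2 fold change in edgeR was 4.08 (SE 0.82). WT replicates differed by 1.14-fold and those labelled Selk-/- by 7.70-fold, so WT libraries were close together and the others were not. Serpina3g went from 1.70 ± 0.755 to 13.1 ± 8.51 CPM, a ratio of 7.73 and a log2 fold change of 2.95 (SE 0.60). Serpina3n went from 1.77 ± 1.14 to 10.9 ± 6.60 CPM, a ratio of 6.14 and a log2 fold change of 2.62 (SE 0.67). The gap between groups was narrowest for Serpina3n, whose lowest library labelled Selk-/- was 1.30 times its highest WT library, against 2.51 times for Serpina3g and 4.03 times for Serpina3f. Without replicate 2 labelled Selk-/- the log2 fold changes were 3.19 for Serpina3f, 2.32 for Serpina3g and 2.13 for Serpina3n. Without WT replicate 2, the WT library with the most Serpina3n, that of Serpina3n was 3.27.

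Among all genes, groups did not overlap with the libraries labelled Selk-/- higher in 12.5% of 17739 tested genes. In the family this held for 5 of 8 genes, of which 4 passed the filter on low counts (Serpina3h did not). As these genes were picked from this contrast, nothing is read from that count. A filter of this kind lets a gene through on its counts in either group, and Serpina3i passed on those labelled Selk-/- alone. In the order of fitted log2 fold changes over all tested genes Serpina3i stood at place 2, Serpina3f at 6, Serpina3g at 18 and Serpina3n at 23. High places follow from the same choice of genes, so nothing is read from them either. That of Serpina3i rests on a count of 0 in WT.

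Per length, in the authors' FPKM, Serpina3g was the highest member in each library. It had 0.386, 1.32 and 0.915 FPKM in WT replicates 1 to 3, and 2.93, 11.1 and 5.43 FPKM in replicates 1 to 3 labelled Selk-/-. Serpina3n had 0.384, 1.25 and 0.544 FPKM in WT and 1.63, 7.01 and 4.69 FPKM in the libraries labelled Selk-/-. Serpina3f had 0.290, 0.320 and 0.331 FPKM in WT and 1.34, 10.4 and 4.48 FPKM in the libraries labelled Selk-/-. In WT the level of Serpina3f was below that of Serpina3n in all 3 libraries. In those labelled Selk-/- it was below Serpina3n in replicates 1 and 3 and above it in replicate 2, so the order of these 2 genes differed between libraries. Serpina3i (0.185 to 0.576 FPKM) and Serpina3h (0.0752 to 0.577 FPKM) were well below all 3 genes in the libraries labelled Selk-/- and overlapped each other.

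The 8 genes together summed to 2.59, 6.39 and 4.17 CPM in WT replicates 1 to 3, and to 14.2, 69.96 and 36.0 CPM in replicates 1 to 3 labelled Selk-/-. The mean was 4.38 ± 1.91 CPM in WT and 40.1 ± 28.1 CPM in those labelled Selk-/- (SD, n = 3 per group), a ratio of 9.14. Without replicate 2 labelled Selk-/- the mean of that group was 25.1 CPM. The make-up of this sum differed between libraries. Serpina3n held 35.6% of the family's counts in WT replicate 1 (95% Wilson interval 25.6 to 47.1), 47.9% in replicate 2 (40.5 to 55.4) and 31.6% in replicate 3 (23.9 to 40.5). It held 28.1% (23.8 to 32.8), 24.5% (22.6 to 26.6) and 31.6% (28.4 to 35.0) in replicates 1 to 3 labelled Selk-/-. The 2 groups met at 31.6%, in replicate 3 of each. These Wilson intervals cover counting error within a library alone and leave out the spread among libraries. Serpina3f held 13.6% to 30.1% in WT, and 25.3%, 39.5% (37.3 to 41.8) and 32.9% in replicates 1 to 3 labelled Selk-/-. Its share was highest in replicate 2 labelled Selk-/-, the library with the highest sum, and ranges of the 2 groups overlapped. Serpina3i and Serpina3h held 2.17% to 3.61% and 1.03% to 1.98% in the libraries labelled Selk-/-. In WT replicate 1, a share of up to 5.00% is within the Wilson interval of a count of 0.

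**Figure D3:**
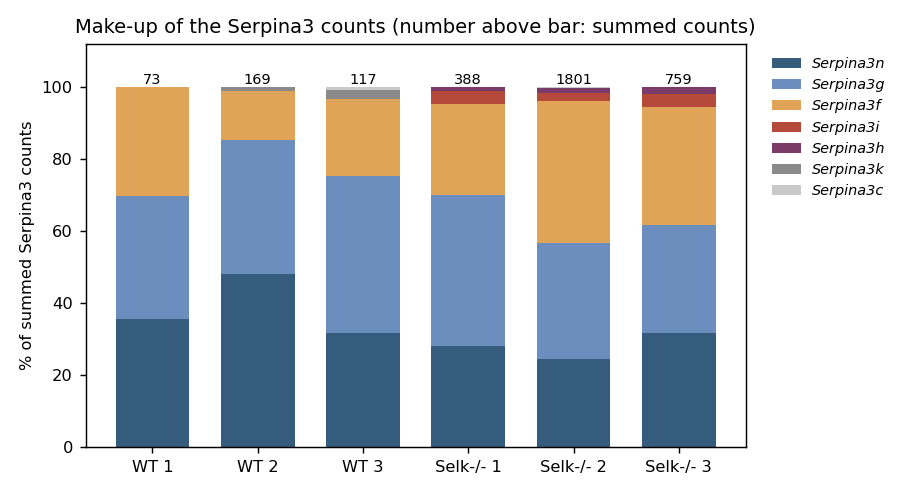
Share of the summed counts of the 8 Serpina3 genes held by each gene (y axis, %), by library, with the summed counts above each bar; Serpina3m has no counts. Serpina3i and Serpina3h appear in the 3 libraries labelled Selk-/- alone, and the share of Serpina3f is largest, at 39.5%, in replicate 2 labelled Selk-/-.

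Values that set libraries apart moved in part with the family. Replicate 2 labelled Selk-/-, the highest for each of the 5 genes, was also the library with 6333 CPM of neutrophil markers. Replicate 1 labelled Selk-/- had fewer neutrophil marker counts than any WT library, at 676 CPM. It had 4.24 times the mean WT level of Serpina3f, 3.52 times that of Serpina3g and 2.26 times that of Serpina3n. The part of neutrophils in these levels was not tested. Replicate 1 is also the library labelled Selk-/- whose small nucleolar RNA level was that of WT. With that split as a block, a choice made after seeing the data, the log2 fold changes were 2.08 for Serpina3f, 1.82 for Serpina3g and 1.18 for Serpina3n. These blocked values rest on that 1 library labelled Selk-/-. The part of these differences that goes with the split cannot be told apart from the spread among libraries labelled Selk-/-.

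Markers of cells that can express the family were present in all libraries. Astrocyte markers (15 of 15 tested) summed to 466 to 704 CPM in WT and 474 to 571 CPM in those labelled Selk-/-, and 12 of 15 had a log2 fold change below 0. Oligodendrocyte markers (13 of 14 tested) summed to 365 to 557 CPM in WT and 343 to 541 CPM in the other group, with 11 of 13 below 0. Endothelial markers (15 of 15 tested) summed to 4778 to 6041 CPM and 5758 to 7635 CPM, with 12 of 15 above 0. Each of these 3 sums overlapped between groups, and replicate 1 labelled Selk-/-, with the lowest Serpina3 sum of its group, had the highest endothelial sum. Of 12 liver markers 4 were tested, and albumin (Alb), which defines hepatocytes, was at 0.660 to 1.67 CPM. None of the astrocyte, oligodendrocyte and endothelial markers was at 0 in all libraries. Their part in the Serpina3 levels was not tested.

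Other genes followed the family across the libraries. Likeness was the root-mean-square (RMS) difference between log2 CPM profiles (prior count 2), each centred on its mean over the 6 libraries, among 10034 other genes with a mean of at least 10 CPM. The closest to Serpina3n was Zbtb16, a transcription factor gene and a known glucocorticoid target, at an RMS difference of 0.473, against an RMS deviation of 1.48 for Serpina3n itself. Zbtb16 had 4.51, 12.2 and 8.24 CPM in WT and 30.7, 51.8 and 36.6 CPM in those labelled Selk-/-. Next was Lrg1, an acute-phase glycoprotein made by endothelium and liver, at 0.526, with 5.29, 9.53 and 8.13 CPM in WT and 17.5, 38.6 and 29.2 CPM in those labelled Selk-/-. The heat shock gene Hsph1 (0.772), the matrix protease gene Adamts9 (0.815) and the heat shock gene Hspa1b (0.831) came after them. In Zbtb16 and Lrg1, as in Serpina3n and Serpina3g, WT replicate 1 was the lowest library, WT replicate 2 the highest of WT, and replicate 2 labelled Selk-/- the highest of all.

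Serpina3g had the same first 2 genes, Zbtb16 (0.410) and Lrg1 (0.548), followed by the acute-phase siderophore-binding protein gene Lcn2 (0.796), Adamts9 (0.808) and Ackr1 (0.809). Serpina3f was closest to a different pair. Ackr1, a chemokine-binding receptor of venules, was at an RMS difference of 0.684 and Sele, the E-selectin of activated endothelium, at 0.715, against an RMS deviation of 1.96 for Serpina3f. Lcn2 (0.891), Zbtb16 (0.953) and Lrg1 (1.01) came next. Ackr1 had 5.64, 4.50 and 8.74 CPM in WT and 7.44, 102 and 44.8 CPM in those labelled Selk-/-. Sele had 1.67, 1.36 and 2.14 CPM in WT and 1.80, 49.2 and 14.8 CPM in those labelled Selk-/-. Both were within the WT range in replicate 1 labelled Selk-/-, in which Serpina3f was 4.24 times the WT mean. Within the family, the profiles of Serpina3n and Serpina3g were closest (0.333), then those of Serpina3f and Serpina3i (0.458), and Serpina3n and Serpina3i were farthest apart (0.835) among the 4 tested genes. The WT values of Serpina3i, with a count of 0, are set by the prior count. Its distances to the other members therefore depend on that prior. All these genes share the 6 libraries, and the likeness is a description of them.

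**Figure D4:**
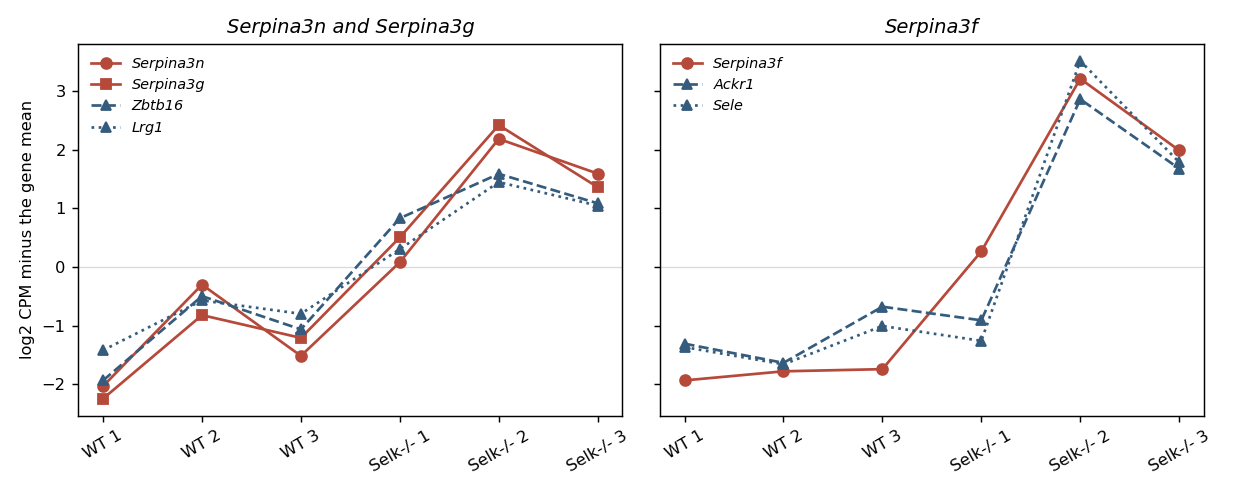
log2 CPM with no prior count, minus the gene's mean over the 6 libraries (y axis), by library (x axis; lines link libraries of no order), for Serpina3n and Serpina3g with Zbtb16 and Lrg1 (left) and for Serpina3f with Ackr1 and Sele (right). Zbtb16 and Lrg1 already lie above WT in replicate 1 labelled Selk-/-, as Serpina3n and Serpina3g do, whereas Ackr1 and Sele lie above WT in replicates 2 and 3 alone.

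The remaining questions concern genes around the family, which were tested in the whole-table comparison of the 2 groups. edgeR called 0 of 17739 genes at adjusted p 0.05 (0%), and limma-voom called 1 (0.00564%). At an unadjusted edgeR p under 0.05 there were 3383 genes, 9.34% of those tested being higher and 9.74% lower. DESeq2 called 503 higher and 471 lower genes, 3.97% and 3.72% of the 12657 for which it gave an adjusted p. The median log2 fold change over all tested genes was -0.0082. In the lists that follow edgeR therefore called 0 members, and calls are those of DESeq2, given out of the members with a DESeq2 adjusted p.

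Other serpins were mostly not called. Of 14 further clade A genes 7 had no counts and none passed the filter, and the most abundant, Serpina1b and Serpina1d, were at 0.142 to 0.550 CPM. Of 28 serpins of other clades 17 were tested, with 13 above 0, a median log2 fold change of 0.23 and 2 of 11 called, both higher. These were the collagen chaperone Serpinh1 (0.63, 122 ± 17.7 to 189 ± 20.3 CPM, SD, n = 3 each; DESeq2 adjusted p = 1.6e-04) and Serpinb6b (0.40, DESeq2 adjusted p = 0.0340). Serpine2, the most abundant, was at -0.24 and the neuronal Serpini1 at 0.53, and neither was called.

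Proteases that the family is known to inhibit, with related enzymes, had 18 of 22 members tested, 10 above and 8 below 0, and a median of 0.18. DESeq2 called 2 of 10, both lower: the lysosomal cathepsins Ctsb (-0.22, DESeq2 adjusted p = 0.0247) and Ctsz (-0.24, DESeq2 adjusted p = 0.0424). Ctsd was at -0.07, Ctss at 0.17 and Ctsl at 0.22, and these 3 were not called. Elane, the neutrophil elastase gene, reached 14.8 CPM in the second replicate labelled Selk-/- where all others held 0.529 to 1.96 CPM, and it is one of the neutrophil markers given above.

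Acute-phase genes had 21 of 35 members tested, 19 above and 2 below 0, with a median of 0.36. Of 17, DESeq2 called 3 higher, Lrg1 (1.89, DESeq2 adjusted p = 7.5e-08) and the metallothioneins Mt2 (0.81, DESeq2 adjusted p = 3.6e-08) and Mt1 (0.36, DESeq2 adjusted p = 0.00574), and 1 lower, the complement gene C4b (-0.62, DESeq2 adjusted p = 0.00408). S100a9, the most abundant with Cd14 (0.04), is also a neutrophil marker and was at 1966 CPM in replicate 2 labelled Selk-/- against 153 to 422 CPM in the others. Summed, these genes held 1924 to 2339 CPM in WT, and 2015, 5659 and 2645 CPM in replicates 1 to 3 labelled Selk-/-.

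Genes of interleukin-6 and STAT3 signalling had 24 of 25 members tested, 17 above 0, with a median of 0.12. Of 22, those called higher were the oncostatin M receptor Osmr (1.18, 37.7 ± 9.29 to 85.3 ± 14.1 CPM, SD, n = 3 each; DESeq2 adjusted p = 2.9e-07), Il6 (0.64, DESeq2 adjusted p = 0.00519) and Cebpd (0.41, DESeq2 adjusted p = 0.0390). Il6st, the shared signalling receptor of this cytokine family, was called lower (-0.42, DESeq2 adjusted p = 0.00235), while the most abundant members, Junb (-0.14) and the STAT3 target Socs3 (-0.01), were not called. NF-kB, interleukin-1 and TNF genes (23 of 23 tested, 16 above 0, median 0.11) had 3 of 23 called higher: the interleukin-1 receptor Il1r1 (1.10, DESeq2 adjusted p = 5.6e-07) and the chemokines Cxcl1 (1.03, DESeq2 adjusted p = 0.00109) and Ccl2 (0.58, DESeq2 adjusted p = 0.0241). Interferon genes (23 of 23 tested, 15 below 0, median -0.10) had 2 of 23 called lower, the receptors Ifnar1 (-0.39, DESeq2 adjusted p = 0.00235) and Ifngr2 (-0.36, DESeq2 adjusted p = 0.00465), and Irf1 was at 0.07.

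Glucocorticoid receptor targets had 20 of 20 members tested, 17 above 0, with a median of 0.22 and 5 of 20 called, all higher. They were Zbtb16 (2.26, DESeq2 adjusted p = 8.2e-05), Hif3a (1.58, DESeq2 adjusted p = 0.00944), Fkbp5 (1.39, DESeq2 adjusted p = 0.0340), Klf9 (0.59, DESeq2 adjusted p = 0.00729) and Sult1a1 (0.53, DESeq2 adjusted p = 0.0180). Fkbp5, the co-chaperone that limits the receptor, had 67.7, 181 and 106 CPM in WT and 363, 226 and 344 CPM in those labelled Selk-/-. Its order among those libraries differs from that of the Serpina3 genes, with replicate 1 highest and replicate 2 lowest. In replicates 1 to 3 labelled Selk-/-, Klf9 had 184, 123 and 151 CPM and Sult1a1 132, 93.5 and 114 CPM. Hif3a had 6.60, 2.72 and 7.64 CPM there, so replicate 2 was the lowest for these genes too. Among the 5 called genes, Zbtb16 alone had the order of the Serpina3 genes. The most abundant members, Dusp1 (-0.11) and Sgk1 (0.16), were not called.

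Lists of reactive glia, in which Serpina3n is itself a known marker and was left out, were mixed. Reactive astrocyte genes (26 of 27 tested, 22 with a DESeq2 adjusted p, 17 above 0, median 0.18) had Osmr, Hspb1 (0.76, DESeq2 adjusted p = 0.00496) and Srgn (0.42, DESeq2 adjusted p = 0.0138) called higher and Fbln5 (-0.48, DESeq2 adjusted p = 0.0321) and Psmb8 (-0.33, DESeq2 adjusted p = 0.0142) called lower. Reactive oligodendrocyte genes (13 of 14 tested, 12 with a DESeq2 adjusted p, 6 above 0, median -0.01) had 0 called higher by DESeq2 or at an unadjusted edgeR p under 0.05, and C4b, H2-D1 (-0.39, DESeq2 adjusted p = 0.00261) and Ctsb called lower.

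**Figure D5:**
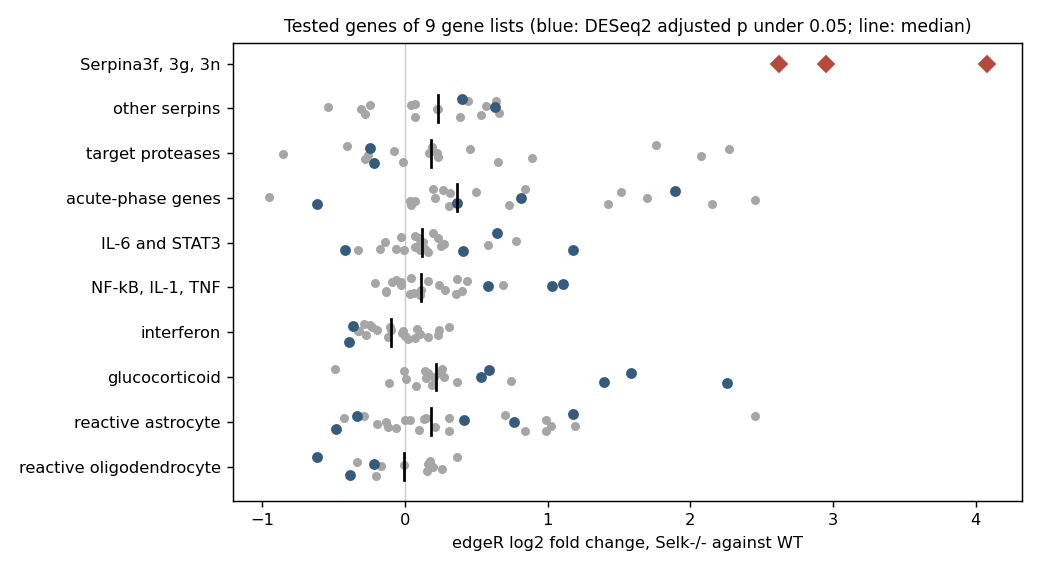
edgeR log2 fold change of libraries labelled Selk-/- against WT (x axis) for each tested gene of 9 lists (rows; vertical place within a row is arbitrary), with the median as a line and genes with a DESeq2 adjusted p under 0.05 in blue; red diamonds are Serpina3f, Serpina3g and Serpina3n. The list medians lie between -0.10 and 0.36; the 3 Serpina3 genes were picked for their difference in this contrast and are drawn for scale.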

How the data were processed

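RNA of adult microglia was sequenced, 3 WT libraries and 3 labelled Selk-/-. Groups come from the genotype labels, and replicate numbers are names only. Per the labels' protocols, alignment was with Hisat2 2.0.5, quantification with stringtie 2.2.0 and the authors' test DESeq2 1.20.0. The submitters' processing notes instead list Bowtie 0.12.2, with mm8 and mm9 as builds. Raw gene counts and FPKM stand side by side in the table the authors deposited, per the file headers, with totals of 21112082 to 28123871 counts per library. It gave symbols for 32704 genes, and 20334 more were named by gene ID.

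The deposited counts were fitted with edgeR 4.0.16 in R 4.3.3 (TMM, filterByExpr, robust quasi-likelihood test, two-sided, Benjamini-Hochberg adjustment over 17739 genes, threshold 0.05), checked on simulated counts. Standard errors were derived from the F statistic. Alternatives used DESeq2 1.42.0 and limma 3.58.1. CPM are TMM-scaled, except limits for a count of 0 and small nucleolar RNA sums, which use unscaled totals. Coding sequences (GENCODE M21) were aligned in pairs with Biopython 1.88 and together with MAFFT 7.526, and shared stretches of 50 and 100 bases were counted in one orientation of the transcripts.

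The genes, lists and tests were chosen with earlier results of these data known. Named genes are the 8 members, the other Serpina3 genes, and for each list its 2 most abundant members, up to 3 with the smallest p at a mean of at least 1 CPM, and members called by DESeq2; not every such gene is printed. The 5 genes most like each member with a mean of at least 1 CPM were also named. Selenok, Alb, Elane and the pseudogene in Serpina3g were added for the checks given beside them. Lists were described by counts and medians, with no set test.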

Additional observations from a re-analysis of the deposited data

How the results depend on the processing

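Title numbers 3 and 6 occur in both groups, 3 as one of the 2 numbers of replicate 3 labelled Selk-/-, but nothing says that a number pairs libraries. Deviations from the group means correlated at 0.141 (number 3) and -0.128 (number 6) over 17739 genes. With a replicate block on these numbers, in 4 libraries, 19 genes passed adjusted p 0.05, 0 of the process lists among them, and the Serpina3n log2 fold change was 2.99. Serpina3n, Serpina3f and Serpina3g stayed higher in the libraries labelled Selk-/- under each alternative that could fit them. With at least 10 CPM in 3 libraries they were not tested. They were picked for this difference and the alternatives reuse the same libraries, so nothing is read from the shared direction. The Serpina3n log2 fold change, 2.62, was 2.13 to 3.27 when each library was left out. It was 1.55 with limma on log2(FPKM + 1), with or without a minimum mean of 1, where the pseudocount shrinks low genes. It was 1.18 with the small nucleolar RNA split as a block and 1.20 without both low libraries, each resting on 1 library labelled Selk-/-; the cause was not tested. Genes past adjusted p 0.05 were 0, against 974 with DESeq2, 92 with at least 10 CPM in 3 libraries and 1 with limma-voom. Leaving out each library gave 0 to 59 (59 without replicate 1 and 1 without replicate 2 labelled Selk-/-). Genes of the process lists past it were 0, against 27 with DESeq2 and 1 with at least 10 CPM, and 0 to 3 with each library omitted in turn (3 without replicate 1 labelled Selk-/-). The summed member CPM ranged from 3.38 to 5.28 (WT) and from 25.1 to 53.0 (labelled Selk-/-), and the Serpina3n share 33.6% to 41.8% and 26.3% to 29.9%, over their alternatives. Both blocks, the omission of both low libraries and the share of FPKM were chosen after seeing the data. In WT, counts of 22 to 81 per library limit the precision of Serpina3f, Serpina3g and Serpina3n, and the other members had 0 to 3.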

Other observations

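Cell types that the report did not describe also varied between libraries. Border macrophage markers (11 of 11 tested) had a median log2 fold change of -0.89 and summed to 787 to 1150 CPM in WT and 357 to 723 CPM in those labelled Selk-/-. Monocyte markers (10 of 10 tested, median 1.23) summed to 169 to 216 CPM in WT, and to 122, 736 and 220 CPM in replicates 1 to 3 labelled Selk-/-, the same library standing out as for neutrophils. Neutrophil markers had 12 of 13 members above 0, a median of 1.73 and 0 called by DESeq2 or at an unadjusted edgeR p under 0.05. Lymphocyte markers (14 of 15 tested, median -0.41) summed to 207 to 242 CPM and 155 to 168 CPM. Mural and fibroblast markers (15 of 15 tested, median 0.04) summed to 1954 to 2123 CPM and 2035 to 2643 CPM. Neuronal markers (9 of 10 tested, median -0.13) summed to 32.6 to 37.7 CPM and 29.4 to 35.9 CPM, and choroid plexus and ependymal markers (10 of 10 tested, median -0.09) to 2226 to 3547 CPM and 2356 to 3179 CPM. Liver markers had a median of -0.94 over 4 tested genes, and their sum of 1157 to 1285 CPM in WT and 1006 to 1038 CPM in the other group was mostly transferrin (Trf), which oligodendrocytes also express.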
